A study of Mus musculus with 18 samples.

Results

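Cutting the sciatic nerve changes gene expression in the distant cell bodies of the injured neurons, and the comparison described here is that injury against a sham operation, both with saline at the nerve. The samples were chosen by their labels: the 3 SNA_Saline samples (sciatic nerve axotomy, saline) and the 3 Sham_Saline samples (sham operation, saline), 6 of the 18 samples in the series. All were sciatic dorsal root ganglia (L4-L6) of C57BL/6 mice aged 6 to 8 weeks, taken 24 hours after surgery. Each sample pooled ganglia from 2 mice, and the samples of a group were pools of different mice. The other 12 samples, used here for the estimate of spread and as levels beside the main comparison, were 3 each of SNA_NAC (the same nerve injury with 30 mM N-acetyl-cysteine, a thiol antioxidant), Sham_H202 (sham with 13 mM hydrogen peroxide), DCA (injury of the spinal dorsal columns) and LAM (laminectomy, the opening of the vertebral arch). The tissue was whole ganglion, so neurons, glia, vessels and immune cells were sampled together, and fewer cells of a type cannot be told apart from less RNA per cell.

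A dorsal root ganglion holds the cell bodies of sensory neurons, each wrapped in satellite glial cells, with Schwann cells along the axons. Each neuron sends 1 branch to the periphery and 1 to the spinal cord. After a cut in the peripheral branch, signals travelling back along the axon and the loss of factors supplied by the target tissue are known to switch the cell body from transmission to repair: stress-induced transcription factors such as Atf3, Jun and Sox11 rise, growth-associated proteins and injury neuropeptides rise with them, and many channels and receptors of the intact neuron fall. The results below concern the gene families beyond those best known members.

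The groups were compared over all 15730 genes of the deposited count table with edgeR's quasi-likelihood test, and a gene was called where its adjusted p was under 0.05. After axotomy 340 genes were called higher (2.16% of those tested) and 90 were called lower (0.572%), together 2.73%. The SNA_Saline and Sham_Saline libraries did not overlap for any of these 430 genes, nor for 19.1% of all genes tested. A log2 fold change of at least 1 was seen in 102 of the genes called higher and 26 of those called lower. Levels are given as CPM, read counts scaled so that libraries of unequal depth can be compared, and log2 fold changes are SNA_Saline minus Sham_Saline. Library values follow the order of replicates 1 to 3, and a value in parentheses after a gene is its log2 fold change ± SE. The median log2 fold change over all genes was -0.03. As a reference, 23 of 30 measured genes of a list of best known injury genes were called higher and 0 lower. The ganglia carried their defining neuronal markers at high levels: the 15 markers summed to between 20007 and 26128 CPM in the sham libraries and between 19183 and 19880 CPM after axotomy, just under the sham range, with none of them called.

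Some libraries stood apart in ways that bear on these calls. Total counts ran from 14285706 to 23604010 in the sham libraries and from 9467654 to 15390014 after axotomy. Sham_Saline replicate 2 had the steepest dependence of a gene's log2 CPM on transcript GC share, 0.43 per SD, against -0.04 and 0.16 in the other sham libraries and -0.17 to 0.12 after axotomy. Genes called lower had a median GC share of 54.1%, those called higher 47.6% and all genes 49.6%. With the GC share and length of each transcript entered as offsets, 682 genes were called higher (4.36% of 15648) and 489 lower (3.12%), and 303 of the 340 and 72 of the 90 were still called in the same direction. Without Sham_Saline replicate 2 the counts were 206 and 27, and without Sham_Saline replicate 1 they were 1280 and 1268. The same replicate 2 had the highest sum of 15 skeletal muscle markers, 2272 CPM, where the other sham libraries had 282.9 and 144.9 and the axotomy libraries 345.2, 159.5 and 674.7. None of the muscle markers was called. The part of the GC slope and of muscle RNA in single calls was not tested beyond these refits. Sums of the 15 macrophage markers (224.7 to 276.1 CPM in sham, 229.5 to 274.2 after axotomy), the 13 Schwann cell markers (7373 to 11758 and 9109 to 9907) and the 10 satellite glia markers (2524 to 3482 and 2828 to 2981) overlapped between the groups. In the 12 marker lists edgeR called only Gfap, higher, in the list of spinal cord glia. At an unadjusted p under 0.05, which 22.5% of all genes reached, there were 4 of 10 pericyte and smooth muscle markers (list median -0.45, summed level 387.8 to 427.6 CPM in sham and 423.3 to 490.2 CPM after axotomy). There were 3 of 15 neuronal, 3 of 13 fibroblast and meningeal, 2 of 15 macrophage, 2 of 12 neutrophil, 2 of 12 endothelial, 1 of 10 satellite glia and 1 of 7 lymphocyte markers, and 0 of 13 Schwann cell, 0 of 15 muscle and 0 of 7 red blood cell markers. With DESeq2 at an adjusted p under 0.05, 1 pericyte and 1 neuronal marker were lower, and 1 satellite glia and 1 macrophage marker were higher.

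**Figure D1:**
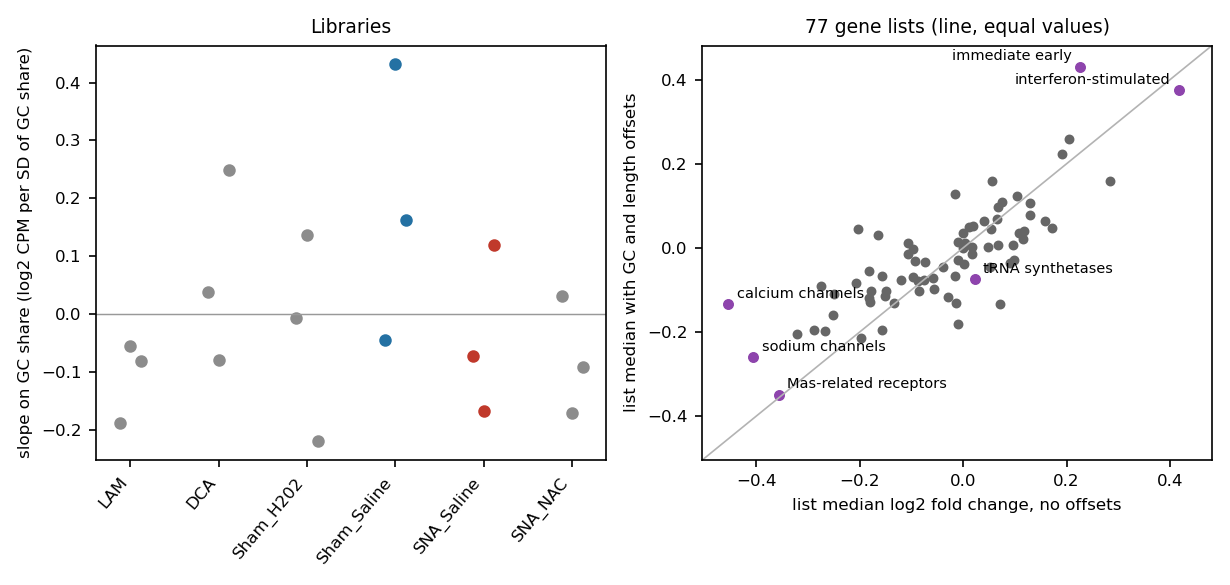
Left, how steeply log2 CPM depended on GC share in each of the 18 libraries, by group (blue, Sham_Saline; red, SNA_Saline; grey, the other groups); Sham_Saline replicate 2 is the highest point, at 0.43. Right, the median log2 fold change of each of 77 gene lists without (x) and with (y) GC and length offsets; the calcium channel list lies at -0.45 without and -0.13 with them, and the interferon-stimulated list at 0.42 and 0.38.

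A receptor for plasminogen activation and a receptor of the clotting system were among the genes called higher outside the best known ones. Plasmin, which plasminogen gives rise to, is the protease that dissolves fibrin and matrix. Of 17 serpins and plasminogen activators, 3 were called higher and 0 lower, with a list median of 0.17 (0.05 with GC and length offsets). Plaur (ENSMUSG00000046223, chr7:24462484-24475968 of mm10), the urokinase receptor that holds plasminogen activation at the membrane, measured 5.34, 9.94 and 6.31 CPM in the sham libraries and 22.9, 18.7 and 25.4 CPM after axotomy. The injured libraries all lay above the sham libraries, with a log2 fold change of 1.63 ± 0.21 (SE, n = 3 each; edgeR adjusted p = 0.000187). Serpinb1a, an intracellular inhibitor of neutrophil proteases, had more reads and rose from 204, 193 and 226 CPM to 605, 624 and 549.9 CPM (1.52 ± 0.13). Procr, the endothelial protein C receptor, was in no list and had one of the largest changes: 4, 7.92 and 5.9 CPM in sham and 34.9, 31.2 and 36 CPM after axotomy (2.51 ± 0.22, edgeR adjusted p = 5.92e-06). All 3 genes were also called with GC and length offsets.

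Among the extracellular proteases, 4 of 53 matrix metalloproteinases, ADAM and ADAMTS proteases and their TIMP inhibitors were called higher and 0 lower (list median -0.11, and 0.01 with offsets). Mmp16, a membrane-anchored metalloproteinase, measured 10.4, 5.22 and 5.02 CPM in sham and 19.8, 21.9 and 15.6 CPM after axotomy (1.46 ± 0.23). Adam8, a membrane protease of leukocytes and neurons, had a log2 fold change of 0.90 ± 0.20, Timp1, a metalloproteinase inhibitor, of 1.17 ± 0.29, and Adamts1, which cleaves proteoglycans, of 0.81 ± 0.19. The members that rose include both proteases and an inhibitor of proteases. Of 37 collagens 0 were called, with Col6a5 nearest at a log2 fold change of 1.31 (adjusted p = 0.0511). Of 35 integrins and laminins only Itgb1, the beta-1 chain shared by most matrix-binding integrins, was called, from 474, 334 and 369 CPM to 590.4, 634 and 506 CPM (0.55 ± 0.13).

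Growth factor genes changed as single members of their families. The lists of EGF receptor ligands and receptors (1 of 15 higher, 0 lower), fibroblast growth factors and receptors (1 of 15 higher), and insulin-like growth factor signalling (1 of 19 higher) each had 1 called gene. Igfbp3, the main carrier of insulin-like growth factors in serum, had the most reads of these 3, at 30.1, 36.1 and 28 CPM in sham and 105, 96.2 and 103 CPM after axotomy (1.69 ± 0.17, edgeR adjusted p = 1.68e-05). Fgf3, a ligand of development, was low in every library and measured 1.48, 2.69 and 1.76 CPM and 8.45, 5.62 and 8.77 CPM (1.94 ± 0.34). Areg, the EGF receptor ligand amphiregulin, had a log2 fold change of 3.02 ± 0.30. Shh, the hedgehog ligand, was the 1 called gene among 26 of the hedgehog and Hippo pathways, with 18.1, 16.2 and 11.3 CPM in sham and 25.5, 25.3 and 24.5 CPM after axotomy (0.72 ± 0.16). It was no longer called without Sham_Saline replicate 2.

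In BMP, activin and TGF-beta signalling, 3 of 48 genes were called higher and 1 lower (median -0.25, and -0.11 with GC and length offsets). BMPs bind cell surface receptors that phosphorylate Smad proteins, and secreted antagonists keep the ligands away. The receptor Acvr1 (0.78 ± 0.11) and its transducer Smad1 (0.87 ± 0.10) rose. Smad1 measured 38.7, 38.5 and 41.9 CPM in sham and 74.7, 74.7 and 69 CPM after axotomy, with little spread in either group. The antagonists moved in opposite directions: Fst, follistatin, rose from 8.96, 7.96 and 8.69 CPM to 28, 31.6 and 24.6 CPM (1.72 ± 0.16), and Nog, noggin, fell from 5.62, 5.26 and 6.85 CPM to 3.1, 3.35 and 2.35 CPM (-1.01 ± 0.25, edgeR adjusted p = 0.0386). The call of Nog was lost with GC and length offsets (adjusted p = 0.195). Wnt signalling had Wnt5a, a ligand, higher (0.61 ± 0.15) and Bcl9l, a coactivator of beta-catenin, lower (-1.46 ± 0.36) among 51 genes, and both calls were lost without Sham_Saline replicate 2. None of 28 Notch pathway genes was called.

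The neurotrophin and GDNF family, whose ligands come from the target tissue and from glia, had 2 of 15 genes higher and 2 lower. Its receptors split. Gfra1, which binds GDNF, measured 201, 170.3 and 168 CPM in sham and 367, 372 and 335 CPM after axotomy (1.00 ± 0.12, edgeR adjusted p = 0.000122). Gfra2, which binds neurturin, measured 122, 149 and 119.8 CPM and 85.5, 85.3 and 103 CPM (-0.52 ± 0.10, edgeR adjusted p = 0.0095). Every injured library was above the sham range for Gfra1 and below it for Gfra2. Of the ligands, Bdnf, brain-derived neurotrophic factor, rose from 64.5, 59.5 and 59.6 CPM to 125, 119 and 120.3 CPM (0.99 ± 0.14). Ntf3, neurotrophin 3, fell by 2.14 on the log2 scale from a low level, with 23, 44 and 19 reads in the sham libraries and 3, 5 and 4 after axotomy. It is named because it completes the count, after its values were seen.

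**Figure D2:**
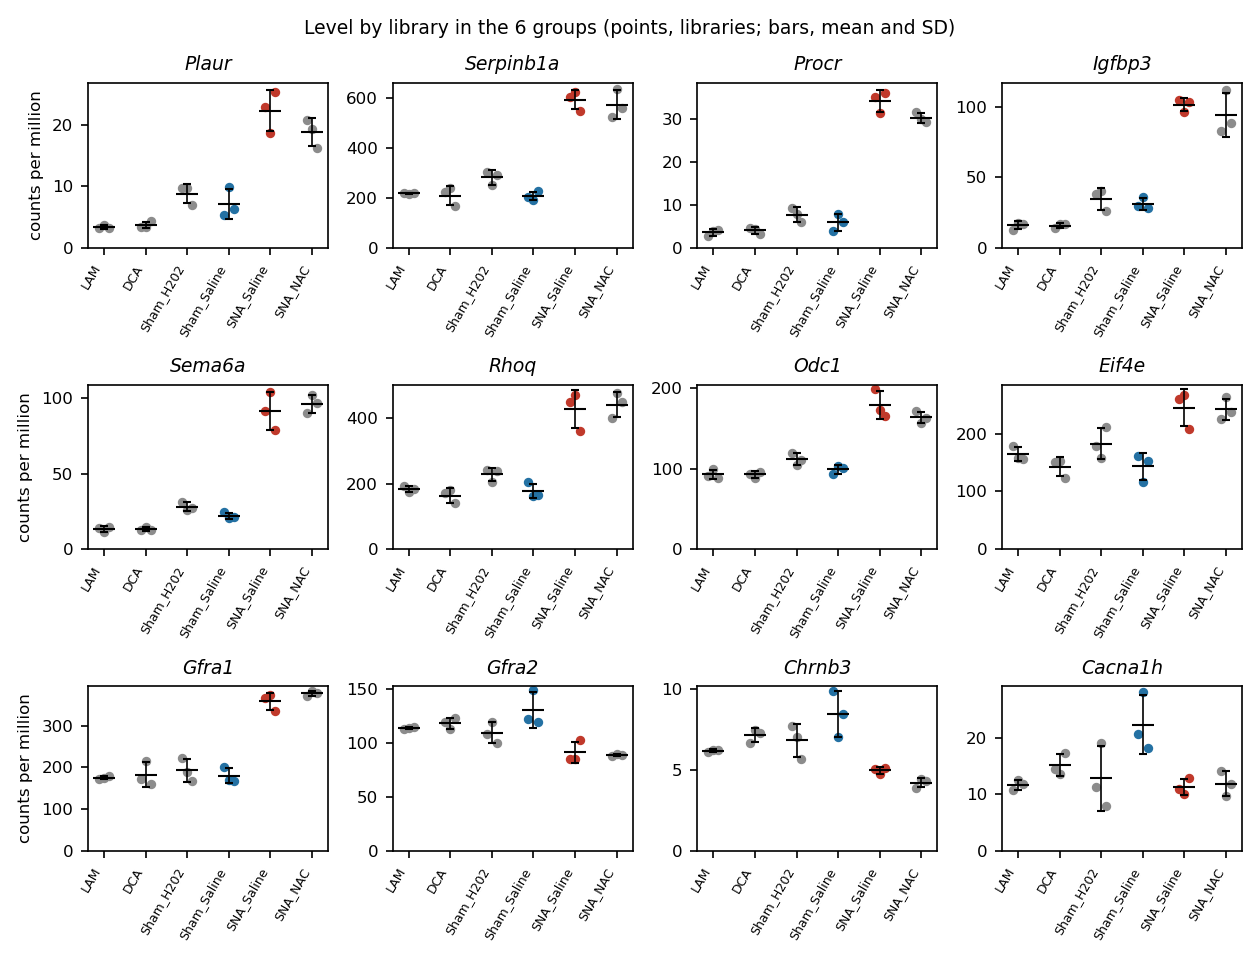
CPM of 12 genes in each library of the 6 groups (3 libraries a group; blue, Sham_Saline; red, SNA_Saline; grey, the other groups), with bars at the mean and its SD. The 3 SNA_Saline libraries lie above the 3 Sham_Saline libraries for the first 9 genes and below them for Gfra2, Chrnb3 and Cacna1h, and for Cacna1h the LAM libraries (10.8 to 12.5 CPM) lie as low as the injured ones (10.1 to 12.8 CPM).

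Immune signalling genes changed in small numbers. Interferon-stimulated genes, which cells switch on when interferon receptors are engaged, had 3 of 43 members called higher and 0 lower, while 40 of 43 had a positive log2 fold change and the list median was 0.42 (0.38 with offsets). Over all genes 7318 of 15730 were positive. Ifit1, an RNA-binding effector, measured 38.4, 29.4 and 34.7 CPM in sham and 87.5, 104 and 60.5 CPM after axotomy (1.30 ± 0.29). Igtp, an interferon-induced GTPase, had a log2 fold change of 0.74 ± 0.17 and Oasl2, of the oligoadenylate synthetase family, of 0.60 ± 0.15. With offsets 8 members were called higher, and without Sham_Saline replicate 2 none was. The monocyte chemokines Ccl7 (1.94 ± 0.36) and Ccl12 (1.68 ± 0.37) were the 2 called of 27 chemokines and receptors. Both were low and are named after their values were seen: Ccl7 had 20, 32 and 29 reads in the sham libraries and 97, 52 and 57 after axotomy.

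In the TNF superfamily 3 receptors rose among 25 measured genes, with no ligand called. Tnfrsf12a, the receptor of the cytokine TWEAK, measured 6.58, 11.2 and 10.7 CPM in sham and 22.4, 18.7 and 25.9 CPM after axotomy (1.24 ± 0.21). The other two were Tnfrsf1b, the second TNF receptor (0.64 ± 0.17), and Tnfrsf21, death receptor 6 (0.45 ± 0.09). Tnfrsf1b was close to the threshold (edgeR adjusted p = 0.0488). Its call was lost in 9 of 14 refits with other settings or a library left out, against 1 for Tnfrsf12a and 4 for Tnfrsf21. Tnfrsf21 had the most reads, at 218, 206 and 188 CPM and 278, 294 and 264 CPM. Il1r1, the signalling receptor of interleukin 1, was the 1 called gene of 32 in the interleukin 1 and Toll-like receptor list, from 13.1, 9.9 and 8.14 CPM to 17, 17.4 and 16.9 CPM (0.72 ± 0.16), and it lost its call without Sham_Saline replicate 2. Socs2, a feedback inhibitor of cytokine receptors, rose (0.71 ± 0.17), and of 27 complement and MHC class II genes 0 were called.

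Transcription factors of the bZIP family bind DNA as dimers and include the AP-1 and CREB groups. Of 43 members 6 were called higher and 1 lower, with a median of 0.21 (0.26 with offsets). Besides Atf3 and Jun these were Nfil3, a repressor of the bZIP family that also acts in the circadian clock, from 7.53, 10.4 and 9.09 CPM to 17.7, 17.6 and 20.7 CPM (1.05 ± 0.17), Crem, a cAMP-responsive modulator (0.98 ± 0.18), Bach1, a repressor of antioxidant genes (0.83 ± 0.16), and Fosl2, an AP-1 subunit. Fosl2 measured 18.5, 15.8 and 15.9 CPM in sham and 28.4, 30.8 and 31.3 CPM after axotomy (0.85 ± 0.13). Creb3l1, a membrane-bound factor activated by cleavage, was the member called lower (-0.72 ± 0.16), and its call was lost with offsets (adjusted p = 0.233).

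Where the promoters of risen genes hold the short sequences that such factors bind, the sequence can be read directly. The windows below, from RefSeq promoters on GRCm38.p6 (mm10), are the 120 bases before the annotated start of 3 genes called higher, shown because each holds such a match close to its start. Capitals mark the CRE (TGACGTCA) in Areg (chr5:91139479-91139598, plus strand, positions -61 to -54 with -1 the last base before the start), and the AP-1 motif (TGANTCA) in Plaur (chr7:24462363-24462482, plus strand, -69 to -63) and in Srxn1 (chr2:152105404-152105523, plus strand, -102 to -96 and -45 to -39).
Areg: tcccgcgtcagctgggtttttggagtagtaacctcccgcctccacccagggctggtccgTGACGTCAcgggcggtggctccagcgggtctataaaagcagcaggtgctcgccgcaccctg
Plaur: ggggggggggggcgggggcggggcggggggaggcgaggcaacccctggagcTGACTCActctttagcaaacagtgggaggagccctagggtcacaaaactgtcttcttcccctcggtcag
Srxn1: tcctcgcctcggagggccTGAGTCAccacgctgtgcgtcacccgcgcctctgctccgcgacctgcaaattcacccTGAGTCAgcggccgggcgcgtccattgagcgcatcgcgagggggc
Such matches were not rare among all genes. In the 250 bases before the start, on either strand, TGACGTCA was present in 10 of 247 genes called higher (4.05%), in 1 of 52 called lower (1.92%) and in 334 of 11364 genes with a window (2.94%). TGANTCA was present in 7.69%, 3.85% and 5.62%, TTGCATCA (the element bound in amino acid starvation) in 0.81%, 0 and 0.678%, and TGACNNNGC (the antioxidant element) in 19%, 23.1% and 14%. The last motif can overlap TGANTCA. A match describes the letters and was not tested as a binding site.

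Among factors that fix neuronal identity the called members were lower. Of 32 sensory neuron identity factors, 3 were called lower and 0 higher (median -0.09, and -0.08 with offsets), and the calls were lost without Sham_Saline replicate 2. Scrt1, a neuronal zinc finger repressor, measured 27.4, 53.6 and 26.9 CPM in sham and 11.7, 11.7 and 16.9 CPM after axotomy (-1.42 ± 0.34), with the second sham library far above the other two. Pou4f3, a POU factor, had a log2 fold change of -0.53 ± 0.13. Prdm12, required for nociceptor development, measured 102, 106 and 96 CPM and 70.3, 68.6 and 80.9 CPM (-0.47 ± 0.10), and was not called with offsets (adjusted p = 0.541). Of 31 Hox genes, which mark position along the body axis, Hoxb6 was called lower (5.29, 8.42 and 5.97 CPM, then 3.1, 3.03 and 3.42 CPM, -1.04 ± 0.18), and so was Hoxa6, on 24, 14 and 14 reads in the sham libraries and 1, 1 and 3 after axotomy. Klf6, a Kruppel-like factor linked to axon growth, rose from 94.4, 73.4 and 84.3 CPM to 196, 201 and 164 CPM (1.16 ± 0.13), and Klf10 had 0.56 ± 0.12. Ets2 was the 1 called of 20 Ets factors (0.80 ± 0.11), and Sox11 (1.91 ± 0.30) and Sox9 (0.96 ± 0.23) were the 2 called of 13 Sox genes. None of 37 nuclear receptors was called.

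Of the enzymes that write and read DNA methylation and histone acetylation, 2 of 38 were called higher and 0 lower. Tet3, which oxidises methylated cytosine, measured 19.2, 13.9 and 15.1 CPM in sham and 28.7, 33.6 and 23.5 CPM after axotomy (0.83 ± 0.16, edgeR adjusted p = 0.007). Mbd2, a reader of methylated DNA, had 0.33 ± 0.08, which was not called with offsets (adjusted p = 0.0965). None of 48 lysine demethylases and methyltransferases was called. Zinc finger (Zfp) genes, the largest list, had 6 of 330 called higher (1.82%), near the 2.16% of all genes. Zfp367 led them, from 46.5, 36.6 and 33.8 CPM to 124, 124 and 94.5 CPM (1.55 ± 0.16), followed by Zfp772 (1.19 ± 0.15) and Zfp697 (0.98 ± 0.17). Bhlhe41, a repressor in the circadian clock, measured 58.2, 54.4 and 60.3 CPM and 118, 120 and 112 CPM (1.02 ± 0.12), and with Nfil3 it made 2 of 21 clock genes.

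**Figure D3:**
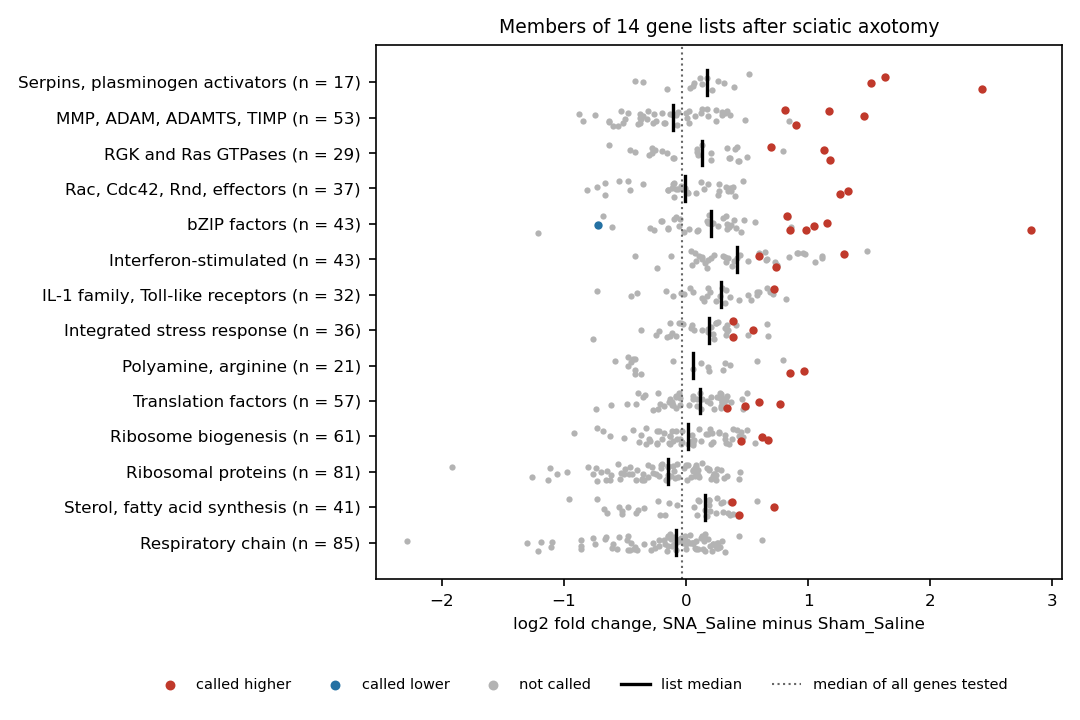
Log2 fold change (x) of each measured member of 14 gene lists (rows, with the number of members); red points were called higher and blue points called lower at an adjusted p under 0.05, the black bar is the list median and the dotted line the median of all genes, -0.03. Single members stand far to the right in the serpin, protease and GTPase lists, and none of the ribosomal protein and respiratory chain members was called.

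A few enzymes of growth metabolism rose. Polyamines are small cations needed for growth, and their rate-limiting enzyme Odc1, ornithine decarboxylase, measured 93.5, 104 and 101 CPM in sham and 199, 173 and 166 CPM after axotomy (0.85 ± 0.09, edgeR adjusted p = 3.48e-05). Azin1, which frees that enzyme from its inhibitor antizyme, measured 385, 262 and 272 CPM and 647, 668 and 482 CPM (0.97 ± 0.18). These were the 2 called of 21 polyamine and arginine genes. In sterol and fatty acid synthesis 3 of 41 were called higher: Hsd17b7 (0.72 ± 0.12) and Sqle, squalene epoxidase (0.37 ± 0.09), 2 enzymes of cholesterol synthesis, and Insig1, the sensor that restrains the pathway (0.44 ± 0.11). Abca1, which exports cholesterol, was higher (0.91 ± 0.22) and its relative Abcg1 lower (-0.56 ± 0.12), and with Abcg2, a drug efflux pump (0.57 ± 0.12), they were the 3 called of 40 ABC transporters. None of the 3 was called without Sham_Saline replicate 2, and Abcg2 was not called with offsets (adjusted p = 0.1).

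In protein synthesis a few factors were called, and no ribosomal protein was. Of 57 translation factors 4 were called higher and 0 lower (median 0.12, and 0.04 with offsets), of which 1 was called without Sham_Saline replicate 2. Eif4e, the protein that binds the mRNA cap, measured 162, 116 and 152 CPM in sham and 260.4, 266 and 208 CPM after axotomy (0.77 ± 0.14, edgeR adjusted p = 0.00581). The others were Eif1a, a scanning factor (0.59 ± 0.15), Etf1, the release factor (0.48 ± 0.11), and Eif4e2, a cap-binding relative of Eif4e (0.34 ± 0.08). Ribosome biogenesis had 3 of 61 higher: Nop58, a nucleolar protein (0.67 ± 0.15), Gnl2, a nucleolar GTPase (0.45 ± 0.08), and Myc, a driver of ribosome synthesis (0.62 ± 0.15). Gars (0.40 ± 0.09) and Rars (0.36 ± 0.09), 2 of 40 aminoacyl-tRNA synthetases, were called higher. Nop58 and Rars were not called with offsets (adjusted p = 0.0524 and 0.161). Calls were made in 0 of 81 cytosolic ribosomal proteins (median -0.15, and -0.10 with offsets) and 0 of 76 mitochondrial ribosomal proteins (-0.06 and -0.07). Among respiratory chain and ATP synthase subunits 0 of 85 were called (-0.08 and -0.10). Over all genes 2.73% were called, so lists of this size would hold few calls at that share. The mean log2 level of the cytosolic ribosomal list also varied more between replicates (SD 0.41) than that of the translation factors (0.06).

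Some stress pathways had a few called genes and others had 0. The integrated stress response, which raises amino acid supply when translation is checked, had 3 of 36 genes called higher, and 12 with offsets. Slc1a4, a neutral amino acid transporter, measured 71.2, 72.4 and 63.9 CPM and 102, 104 and 97.7 CPM (0.55 ± 0.08), and Asns, asparagine synthetase, 198, 201 and 215 CPM and 273, 276 and 254 CPM (0.39 ± 0.09). Mthfd2, a mitochondrial folate enzyme, had 0.39 ± 0.10 (with offsets, adjusted p = 0.059). In the LAM libraries Asns measured 250.1, 244.1 and 246 CPM, above the sham range and just under the injured range. Slc1a4 (63.7, 69 and 67.5 CPM in LAM) and Mthfd2 (27.7, 30.9 and 32.4 CPM) did not lie above sham there. Of 37 genes of the p53 pathway and DNA damage 4 were called higher. Pmaip1 (Noxa), a death-promoting member of the Bcl2 family, rose from 4.24, 3.2 and 3.33 CPM to 13.7, 14.6 and 11.8 CPM (1.89 ± 0.22), and it was the 1 called of 19 Bcl2 family members. Cdkn1a (p21), a brake on the cell cycle, had 0.63 ± 0.12. Txnrd3, a thioredoxin reductase, was called with Srxn1 and Txnrd1 among 43 antioxidant genes (0.43 ± 0.11). The unfolded protein response (26 genes), hypoxia and glycolysis (38), and autophagy and lysosome genes (56) had 0 called.

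Small GTPases, switches for actin, adhesion and membrane traffic, rose in each of 3 lists. Rhoq (TC10), a relative of Cdc42 that acts in membrane delivery to growing axons, measured 203, 163 and 167 CPM in sham and 447, 471 and 360.3 CPM after axotomy (1.26 ± 0.13, edgeR adjusted p = 2.19e-05). Rnd1, a constitutively active relative, was low (27, 63 and 23 reads in sham, 74, 41 and 65 after axotomy, 1.32 ± 0.25). These were the 2 called of 37 genes of the Rac, Cdc42 and Rnd family and its effectors. In the Ras list 3 of 29 were called higher: Rras2 (TC21), from 17.9, 15.7 and 18.7 CPM to 43.2, 41 and 34.4 CPM (1.18 ± 0.14), Rasl11a (1.13 ± 0.28) and Rap1b, which acts in neuronal polarity (0.69 ± 0.16). Rab31 was the 1 called of 53 Rab genes (0.41 ± 0.10).

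Few guidance and adhesion genes were called, some with large changes. Sema6a (ENSMUSG00000019647), a transmembrane semaphorin that binds plexins, measured 24.4, 20.9 and 21.4 CPM in sham and 91.5, 104 and 79.2 CPM after axotomy (2.04 ± 0.13, edgeR adjusted p = 1.55e-07). It was the only member called higher of 76 axon guidance genes. The 2 called lower were Unc5b, a netrin receptor of repulsion, from 6.34, 10 and 6.79 CPM to 3.69, 3.24 and 3.71 CPM (-1.12 ± 0.24), and Rtn4rl1, a relative of the Nogo receptor (-0.60 ± 0.14). With offsets 2 were called higher and 8 lower, and without Sham_Saline replicate 2 neither Unc5b nor Rtn4rl1 was called. Flrt3, an adhesion protein with leucine-rich repeats, was the 1 called of 53 in its list (2.46 ± 0.20), and with offsets 3 of these synaptic adhesion genes were called higher and 10 lower. The tubulins Tubb6, from 12.6, 23.4 and 13.9 CPM to 34.4, 32.8 and 34.4 CPM (1.02 ± 0.19), and Tuba1c (0.91 ± 0.18) were the 2 called of 16, and 0 of 59 kinesins and dyneins were called. Stmn4, a microtubule-destabilising stathmin, rose (1.36 ± 0.16), as did Dclk3 (0.42 ± 0.09). Of 75 synaptic vesicle and exocytosis genes 2 were called (2.67%), near the 2.73% of all genes. These were Syt4, higher (0.89 ± 0.16), and Syt7, lower (-0.50 ± 0.11).

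Voltage-gated calcium channels admit calcium on depolarisation. With 4 of 21, their list, which takes in gamma subunits, had the highest share called lower among the channel lists. Over all genes 0.572% were called lower, and 0 of the list were called higher. Cacna1h, the T-type channel of low-threshold mechanoreceptors, measured 20.7, 28.1 and 18.1 CPM in sham and 10.9, 10.1 and 12.8 CPM after axotomy (-0.98 ± 0.25, edgeR adjusted p = 0.0395). Cacna2d2, an auxiliary subunit, measured 23.1, 19 and 19.3 CPM and 11.3, 11.1 and 13.9 CPM (-0.75 ± 0.17). The other called members, Cacng5 (-0.61 ± 0.15) and Cacng2, stargazin (-0.53 ± 0.12), belong to the gamma subunits. These act on AMPA receptors, so the share of the list is not that of calcium channels alone. The list median was -0.45, and -0.13 with GC and length offsets, where 4 were still called lower and 1 was called higher. Without Sham_Saline replicate 2 only 1 was called lower, and with the replicate block 1.

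The other channel families had fewer calls. Of 78 potassium channel genes 2 were called lower (12 with offsets), among them Kcnk18 (TRESK), a background channel of sensory neurons (12, 6.82 and 7.8 CPM, then 4.09, 3.13 and 5.49 CPM, -1.05 ± 0.24). None of 13 voltage-gated sodium channel genes was called in the fit without offsets (median -0.41, and -0.26 with them), and 4 were called lower with them, including Scn2b (136, 124 and 134 CPM, then 106, 111 and 111 CPM; adjusted p = 0.101 without offsets and 0.00736 with them). The TRP, Piezo, acid-sensing and HCN channels (28 genes), chloride channels (31) and Mas-related receptors (9) had 0 called. Asic1, an acid sensor, came nearest among the first of these (-0.76, adjusted p = 0.0787).

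Ligand-gated channels changed in both directions, 2 of 45 higher and 3 lower. The nicotinic acetylcholine receptor subunits divided: Chrna5 was higher, on 18, 10 and 4 reads in sham and 37, 15 and 28 after axotomy (1.93 ± 0.39), while Chrnb3 and Chrna6 were lower. Chrnb3 measured 9.91, 7.08 and 8.48 CPM in sham and 5.08, 4.76 and 5.13 CPM after axotomy (-0.76 ± 0.15), and Chrna6 measured 49.6, 37.2 and 48.2 CPM and 33.6, 30.3 and 27.6 CPM (-0.56 ± 0.11). Gabra5, a GABA-A receptor subunit of extrasynaptic receptors, rose from 10.8, 7.71 and 10.9 CPM to 17, 20.9 and 17.1 CPM (0.90 ± 0.15). Htr3b, a serotonin-gated channel subunit, fell from 22.4, 21.9 and 23 CPM to 14.8, 15.1 and 13.7 CPM (-0.63 ± 0.11), with narrow ranges in both groups. All 5 were also called with offsets. Of 38 metabotropic receptors 0 were called, and 5 were called lower with offsets, among them Htr1d (-0.39, adjusted p = 0.0524 without and 0.00263 with them).

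**Figure D4:**
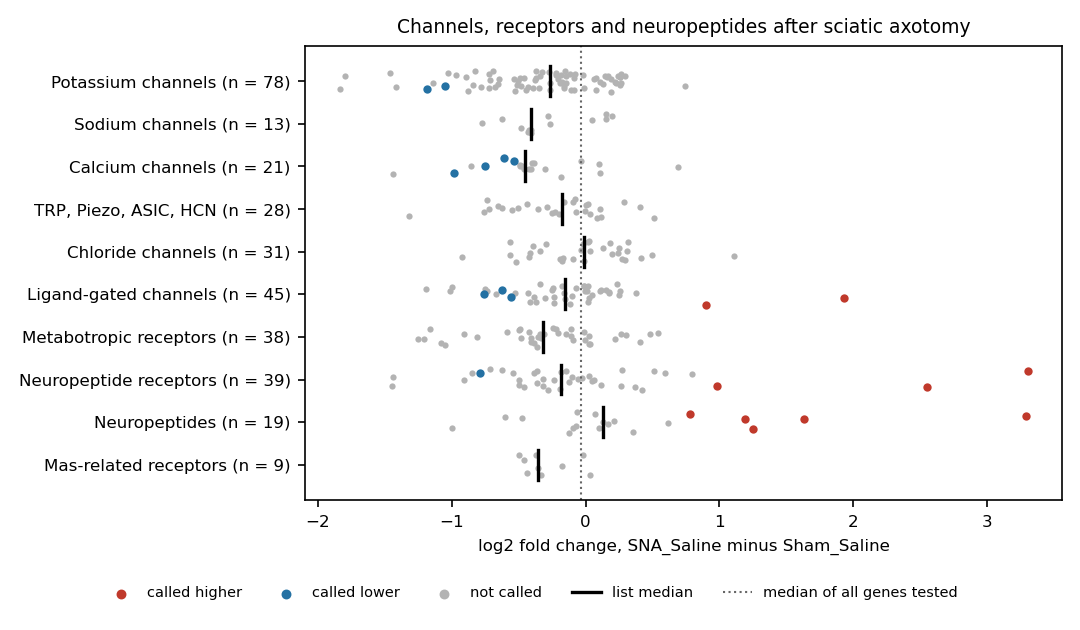
Log2 fold change (x) of each measured member of 10 families of channels, receptors and neuropeptides (rows, with the number of members); red points were called higher and blue points lower at an adjusted p under 0.05, the black bar is the list median and the dotted line the median of all genes. All called genes of the calcium and potassium channel lists lie left of 0, and all 5 called neuropeptide genes lie right of it.

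Neuropeptides had the highest share of members called higher in that set, 5 of 19, with a median of 0.13 (0.11 with offsets). Besides Npy and Adcyap1 (PACAP), these were Nts, neurotensin, from 10.7, 12.1 and 14.8 CPM to 30.8, 33 and 25.8 CPM (1.25 ± 0.29), Gal, galanin (1.19 ± 0.24), and Pthlh, the parathyroid hormone-related peptide, from 3.72, 4 and 3.6 CPM to 7.19, 6.81 and 5.49 CPM (0.78 ± 0.15). Of 39 neuropeptide receptors 3 were called higher and 1 lower. Npy1r, the Y1 receptor for neuropeptide Y, measured 39.1, 26.3 and 36.7 CPM and 67.2, 70.9 and 63.9 CPM (0.99 ± 0.15), and Gpr151, an orphan receptor of sensory neurons, measured 5.05, 6.15 and 5.22 CPM and 36.4, 29.6 and 30.7 CPM (2.55 ± 0.17). Cckbr, the cholecystokinin B receptor, had 3.30 ± 0.45. Oprl1, the nociceptin receptor, was the member called lower, from 24.4, 25.6 and 22.7 CPM to 12.9, 16.3 and 13 CPM (-0.79 ± 0.12, edgeR adjusted p = 0.00143).

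Second messenger genes with a call were few. Rgs20, a GTPase accelerator for G proteins, rose from 4.86, 4.55 and 4.28 CPM to 12.8, 14.9 and 11.1 CPM (1.5 ± 0.20), and Rgs8 was lower (-0.55 ± 0.14), the 2 called of 19. Pkib, an inhibitor of protein kinase A, rose from 51, 44.8 and 55.6 CPM to 102, 116 and 93.8 CPM (1.04 ± 0.16), and Pde7a, which breaks down cAMP, had 0.83 ± 0.18. Both proteins are known to oppose cAMP signalling, and they were the 2 called of 38 genes of adenylyl cyclases, phosphodiesterases and protein kinase A. The zinc importers Slc39a1 (0.49 ± 0.10) and Slc39a6 (0.59 ± 0.15) were the 2 called of 21 zinc genes, and neither was called without Sham_Saline replicate 2. Of 43 proliferation genes, Prc1 (0.87 ± 0.16) and Tpx2 (0.58 ± 0.14), 2 spindle proteins, were called higher.

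Of the 430 called genes 138 were in a list and 292 in none. The 8 largest increases outside the lists, by the rule for named genes, were Procr, Tmem88b, Aim2, Steap1, Smim3, Lmo7, Rin1 and Tifa. Tmem88b, a membrane protein, measured 4.38, 3.96 and 4.48 CPM in sham and 26.2, 24 and 21.4 CPM after axotomy (2.48 ± 0.18, edgeR adjusted p = 4.87e-07). Aim2, a sensor of cytosolic DNA, rose from 2, 1.52 and 0.679 CPM to 7.19, 6.81 and 5.06 CPM (2.14 ± 0.31). Tifa, an adaptor upstream of NF-kappa-B, was the most abundant of the 8 in reads (46.3, 39.9 and 41.1 CPM, then 125, 129 and 116 CPM, 1.54 ± 0.15). Steap1 (1.85 ± 0.16), Smim3 (1.78 ± 0.15), Lmo7 (1.59 ± 0.15) and Rin1, which links Ras to Rab5 (1.55 ± 0.19), completed the set.

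The 8 largest decreases outside the lists were smaller, from -0.93 in Eefsec, the elongation factor for selenocysteine, to -1.28 in Prrt3 and Ptchd2. Prrt3 measured 10.7, 25 and 13.4 CPM in sham and 6.33, 5.73 and 8.13 CPM after axotomy (-1.28 ± 0.30), with the second sham library highest. Bzrap1, a presynaptic scaffold protein that ties calcium channels to release sites, measured 13.2, 15.1 and 11.1 CPM and 5.21, 4.21 and 7.2 CPM (-1.23 ± 0.22). Inpp5j, a phosphoinositide phosphatase, had -1.12 ± 0.26, Vstm2b -1.07 ± 0.24, Impa2, an inositol phosphatase, -1.0 ± 0.21, and Wnk2, a kinase of chloride cotransporters, -0.98 ± 0.24. The second sham library was the highest in all 8, and the call of Wnk2 was lost with offsets (adjusted p = 0.0755).

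In 18 described lists edgeR called no member, and they are given here before adjustment. An unadjusted p under 0.05 was reached by 22.5% of all genes (3532 of 15730). The share was above it for metabotropic receptors (12 of 38) and sodium channels (6 of 13). Within a few genes of it were kinesins and dyneins (16 of 59), nuclear receptors (10 of 37), and hypoxia and glycolysis (9 of 38). So were TRP and related channels (7 of 28), Mas-related receptors (3 of 9), lysine demethylases and methyltransferases (10 of 48) and Notch (5 of 28). No share was tested. The shares were below it for collagens (6 of 37), autophagy and lysosome genes (9 of 56), mitochondrial ribosomal proteins (9 of 76) and the unfolded protein response (3 of 26). They were also below it for chloride channels (3 of 31), ribosomal proteins (7 of 81), the respiratory chain (7 of 85), complement and MHC class II genes (2 of 27) and clustered protocadherins (0 of 22). With DESeq2 at an adjusted p under 0.05, 4 metabotropic receptors, 2 Notch genes, 1 sodium channel, 1 TRP list member, 1 mitochondrial ribosomal protein and 1 demethylase or methyltransferase were lower. Higher by DESeq2 were 2 demethylases or methyltransferases, 2 autophagy genes and 1 each of the nuclear receptor, unfolded protein, hypoxia and collagen lists.

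Libraries outside the comparison give the level of the called genes in other mice. These libraries were outside the comparison but entered the estimate of spread behind the calls. The counts are therefore not independent of the calls. All 3 libraries of SNA_NAC, the same injury with N-acetyl-cysteine, were set against all 3 LAM libraries. They lay above LAM for 299 of the 340 genes called higher, against 20.1% of all genes. They lay below LAM for 50 of the 90 genes called lower, against 15.1% of all genes. Against Sham_H202 the counts were 265 of 340 (12.2% of all genes) and 37 of 90 (6.76%). Plaur stood at 16.3 to 20.9 CPM in SNA_NAC and 3.21 to 3.74 CPM in LAM, Sema6a at 90.2 to 102 and 11.5 to 14.6 CPM, and Rhoq at 399 to 475 and 173 to 192 CPM. For genes called lower the levels were closer: Cacna1h stood at 9.76 to 14.2 CPM in SNA_NAC and 10.8 to 12.5 CPM in LAM, which overlap. Of the same 90 genes, 44 had all 3 Sham_Saline libraries above all 3 LAM libraries, against 16.3% of all genes. Of the 340 genes called higher, 75 (22.1%) had all 3 Sham_Saline libraries below all 3 LAM libraries, against 14.2% of all genes. These groups differ from the main comparison in operation and in agent, and no test was run on them.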

How the data were processed

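Libraries came from a stranded mRNA kit and were read from 1 end, 6 to a lane, per the labels, and the replicate number equals the lane number. The authors deposited raw counts per gene, which were used here, and FPKM values, which the authors deposited for the same reads and which were not used here. The submitters' processing notes name TopHat2 2.0.12, Bowtie2 2.2.3, SAMtools 0.1.19, HTSeq 0.6.0 and the build mm10. How strand was used in counting is not given in the sources used here, so overlapping and antisense genes and near-identical copies are uncertain.

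The main test was glmQLFTest of edgeR 4.0.16 (R 4.3.3), after TMM scaling, filterByExpr and glmQLFit, with all 18 samples in 1 fit on 6 groups. The filter kept all 15730 genes, and p-values were adjusted over all of them by the Benjamini-Hochberg method. Genes varied between replicates with a common coefficient of variation of 17.4%. Standard errors are log2 fold changes over the root of F, without sign. CPM are TMM-scaled. GC share and length came from GENCODE M21 for 15648 genes (natural splines, 5 degrees of freedom). Alternatives were DESeq2 1.42.0, RLE factors, other filters, only the 6 samples, the replicate block, the offsets and leaving out each sample.

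The comparison, the 77 gene lists, the 12 marker lists and the best known list were chosen with earlier results of these data known, so lists are described by counts and medians only. Antisense transcripts, assembly factors and Atp5sl, none of them called, were later removed from the potassium channel and respiratory chain lists, which had taken them in by name. Named genes were up to 3 called members a list with the largest change, groups that do not overlap and 50 or more counts on average, the 8 largest increases and decreases outside the lists, and the member with the smallest p of a list without calls. Others are named only to complete a small count. The values of a few genes that the rule names are not reported here, though the counts include them. Same-numbered samples were different mice on 1 lane, and their deviations from the group means correlated at 0.095, -0.647 and -0.17 for numbers 1 to 3. P-values measure the spread between pools of mice. In simulated counts on these library sizes the edgeR fit called 49 of 50 genes with a log2 fold change of 2 and 31 of 50 with 1. It called 12 of 50 with 0.58 and 25 of 50 with -1. Those counts were drawn independently for each gene and library, without a GC slope. Figures were drawn with matplotlib 3.10.9.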

Additional observations from a re-analysis of the deposited data

How the results depend on the processing

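Counts of called genes moved with the processing, and those of lower genes moved most. The 340 higher and 90 lower genes became 520 and 343 with DESeq2, 682 and 489 with GC and length offsets, 536 and 286 at an adjusted p under 0.10, and 65 and 0 when edgeR was fitted on only the 6 samples, where 2097 genes had an unadjusted p under 0.05. RLE factors, a minimum of 10 counts in every sample and no filter kept both counts within 1.5 times. With the replicate block 276 and 44 genes were called, and with the block and the offsets together 619 and 379. Same-numbered samples did not deviate together (correlations 0.095, -0.647 and -0.17). With 3 samples a group this cannot show whether the numbers share more than a lane.

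Leaving out 1 library gave 158 to 1280 higher and 16 to 1268 lower genes. Both counts fell without SNA_Saline replicate 1 (158 and 16), SNA_Saline replicate 2 (189 and 18) and Sham_Saline replicate 2 (206 and 27), and both grew without Sham_Saline replicate 1 (1280 and 1268). The cause was not tested. Of 90 list medians, 23 moved by more than the spread between replicates (1 SD) with offsets and 35 without Sham_Saline replicate 1. Of the 127 called genes named by the rule, 9 lost their call with offsets, 31 with the replicate block and 90 with only the 6 samples. Without SNA_Saline replicates 1, 2 and 3 in turn, 64, 61 and 15 of them lost it. Without Sham_Saline replicates 1, 2 and 3 in turn, 1, 53 and 26 lost it. None reversed. With 3 samples a group and 9467654 to 23604010 counts a library, small changes can be missed. In simulated counts 12 of 50 genes with a log2 fold change of 0.58 were called. The simulated libraries had no GC slope and no outlying library, so recovery in the data can differ.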

Other observations

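Further families were put together after their values were seen, so their counts describe and support nothing. Enzymes of the hexosamine and uronic acid pathway, which supply the sugars for hyaluronan and glycoproteins, had 4 of 15 members called higher by edgeR: Ugdh (39.3, 32.9 and 33.2 CPM in sham, 71.2, 70.2 and 69.5 CPM after axotomy, 1.00 ± 0.12), Gnpnat1 (0.92 ± 0.19), Gnpda2 (0.88 ± 0.15) and Uap1 (0.68 ± 0.08). Of 21 retinoid enzymes and binding proteins 5 were called higher, led by Lrat, which stores retinol as its ester, from 1.38, 1.22 and 1.9 CPM to 3.96, 2.92 and 2.92 CPM (1.15 ± 0.29). The others were Cyp1b1 (0.84 ± 0.16), Rdh10 (0.62 ± 0.16), Rdh11 (0.57 ± 0.11) and Rdh13 (0.51 ± 0.09). The retinoid list had a median of -0.15, and -0.15 with GC and length offsets, where 1 member was called lower. Lrat and Rdh10 were close to the threshold (edgeR adjusted p = 0.043 and 0.044). Their calls were lost in 7 of 13 and 6 of 14 refits with other settings or a library left out.

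Of 25 Arf and Arl GTPases, which act in vesicle budding, 4 were called higher: Arf6 (0.57 ± 0.14), Arl4c (0.43 ± 0.09), Arl16 (0.48 ± 0.10) and Arf2 (0.42 ± 0.10). Arf6 was not called with GC and length offsets (adjusted p = 0.0709). Among 14 caspases and inflammasome sensors, Casp6 (4.15, 4.34 and 4.28 CPM, then 8.78, 8.65 and 7.49 CPM, 0.96 ± 0.15) and Aim2 were among those called higher. Of the 4 members of the Steap family, Steap1 and Steap4 (0.57 ± 0.13) were called higher, and Steap4 was not called with the offsets (adjusted p = 0.0689).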
